A study of Mus musculus with 4 samples.

Results

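The Iroquois homeobox genes Irx1 to Irx6 were described by their accessible chromatin in mouse forelimb buds, profiled with ATAC-seq, where a transposase places sequencing adapters in open DNA. A region belonged to an Irx gene when the protein-coding transcription start nearest to its centre was that of the gene, or when its centre lay within 2.5 kb of the gene's start. This gave 106 of 89378 regions, made up of 56 of the 42613 E9.5 regions and 50 of the 46765 in the E10.5 list. The genes were chosen by their clustered regions, with the overlap between the lists, the scores and the distances known. The cluster of Irx1, Irx2 and Irx4 on chromosome 13 held 30 regions at E9.5 and 35 at E10.5, and that of Irx3, Irx5 and Irx6 on chromosome 8 held 26 and 15.

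All embryos were wild type of the NMRI strain. The E9.5 group, placed at E9.75 by the protocol, consisted of the forelimb buds of 1 embryo per replicate together with adjoining trunk, and the E10.5 group of the forelimb bud pair of 1 embryo per replicate, with no trunk mentioned. The tissue label at E10.5 also names hindlimb buds, although the source label of those samples is forelimb bud alone. The 2 biological replicates of a stage had been combined by the authors into 1 list, so no value below has a replicate error and stage cannot be told apart from the presence of trunk. Nor can fewer cells of a type be told apart from less accessibility per cell, as the buds were taken whole.

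Irx genes encode homeodomain proteins of the TALE class, which bind DNA as transcription factors and act in the patterning of many organs. Mammals carry them in paired clusters that arose by duplication, such that Irx1 corresponds to Irx3, Irx2 to Irx5 and Irx4 to Irx6. Irx3 and Irx5 act together in the early limb bud and are needed for proximal and anterior skeletal elements of the hindlimb. Distant enhancers of both genes lie in introns of the neighbouring gene Fto. Irx4 is known for the identity of the heart ventricle and Irx6 for neurons of the retina.

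Outside coding exons, 1 stretch was alike between the accessible regions of the 2 clusters, and it is shown here because both regions holding it were called at E9.5 only. The regions holding it are centred 94.9 kb downstream of the nearest of the Irx2 starts, an alternative one, and 9.29 kb downstream of the paralogous Irx5. The stretch has 45 identical bases in an alignment of 52 positions (86.5% identity, blastn E-value 1.16e-10). In the sequences, read on the plus strand of mm9, capitals are the bases identical in both.
Irx2 downstream, chr13:72864748-72864799: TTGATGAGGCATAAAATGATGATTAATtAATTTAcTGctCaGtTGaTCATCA
Irx5 downstream, chr8:94890723-94890773: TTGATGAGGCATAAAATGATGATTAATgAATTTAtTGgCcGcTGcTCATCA
The Irx2 region scored 341.86 and the Irx5 region 247.45, where the score is 10 times the negative log10 of the best peak p-value among the replicate regions behind a combined region. As scores grow with sequencing depth, they were also expressed as the percentile rank within the own list, which was 57.6 for the Irx2 region and 48.4 for the Irx5 region. Both regions were thus of middle rank at E9.5, and the E10.5 list held no overlapping call at either. All regions of one cluster were searched against all of the other, which gave 15 alignments at 8 distinct places. The other 7 places involved coding exons of Irx1, Irx2, Irx3 or Irx5. The longest of those wholly in coding sequence, 229 positions with 87.8% identity between Irx1 and Irx3, is printed from the plus strand, to which both genes run opposite, again with identical bases in capitals.
Irx1 coding exon, chr13:72097430-72097658: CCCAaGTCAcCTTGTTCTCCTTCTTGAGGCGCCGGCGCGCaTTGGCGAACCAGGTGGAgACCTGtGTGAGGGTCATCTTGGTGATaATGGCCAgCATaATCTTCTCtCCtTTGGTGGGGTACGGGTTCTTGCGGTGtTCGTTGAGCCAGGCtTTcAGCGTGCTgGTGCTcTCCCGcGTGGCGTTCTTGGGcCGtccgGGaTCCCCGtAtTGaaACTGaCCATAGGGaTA
Irx3 coding exon, chr8:94324385-94324613: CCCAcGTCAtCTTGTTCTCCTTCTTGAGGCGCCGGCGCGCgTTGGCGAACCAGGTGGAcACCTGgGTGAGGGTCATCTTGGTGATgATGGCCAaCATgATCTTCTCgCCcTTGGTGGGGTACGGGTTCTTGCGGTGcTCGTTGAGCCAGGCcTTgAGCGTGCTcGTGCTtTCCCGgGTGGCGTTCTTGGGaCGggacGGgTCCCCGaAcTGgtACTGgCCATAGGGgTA

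At E9.5 the clusters differed in the share of calls that only one list held, although the intervals of the shares overlapped. Regions touching a region of the other stage by 1 bp or more are called shared, and the rest stage-specific. At E9.5, 18 of 26 regions of the Irx3, Irx5 and Irx6 cluster were stage-specific (69.2%, Wilson 95% interval 50.01% to 83.5%), against 11 of 30 in the Irx1, Irx2 and Irx4 cluster (36.7%, 21.9% to 54.5%) and 29.9% of all E9.5 regions. At E10.5, the stage-specific shares were 6 of 15 (40.0%, 19.8% to 64.3%) and 15 of 35 (42.9%, 28.0% to 59.1%), against 35.0% of all regions. The order of the clusters at E10.5 depended on the overlap required. When a reciprocal overlap of 50% was asked for, the shares were 73.3% for Irx3, Irx5 and Irx6 and 45.7% for Irx1, Irx2 and Irx4, where 39.3% of all E10.5 regions lacked a partner, and at E9.5 they were 84.6% and 36.7%, where 33.4% did. The intervals cover counting error only, and because the genes were chosen by such values, these are a description without a test.

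Distal regions, with a centre more than 2.5 kb from any protein-coding start, gave the same order at E9.5. Of the distal E9.5 regions, 17 of 22 in the Irx3, Irx5 and Irx6 cluster and 11 of 26 in the Irx1, Irx2 and Irx4 cluster were stage-specific, against 40.3% of all distal E9.5 regions. At E10.5 these numbers were 6 of 11 and 15 of 31, against 49.6%. Among the higher-scoring 50% of the E9.5 list, 5 of 12 regions of the Irx3, Irx5 and Irx6 cluster and 3 of 14 of the other cluster had no E10.5 partner, where 10.8% of all such regions had none. In the higher-scoring 50% of the E10.5 list, 3 of 9 and 5 of 13 regions lacked an E9.5 partner, against 18.1%.

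**Figure D1:**
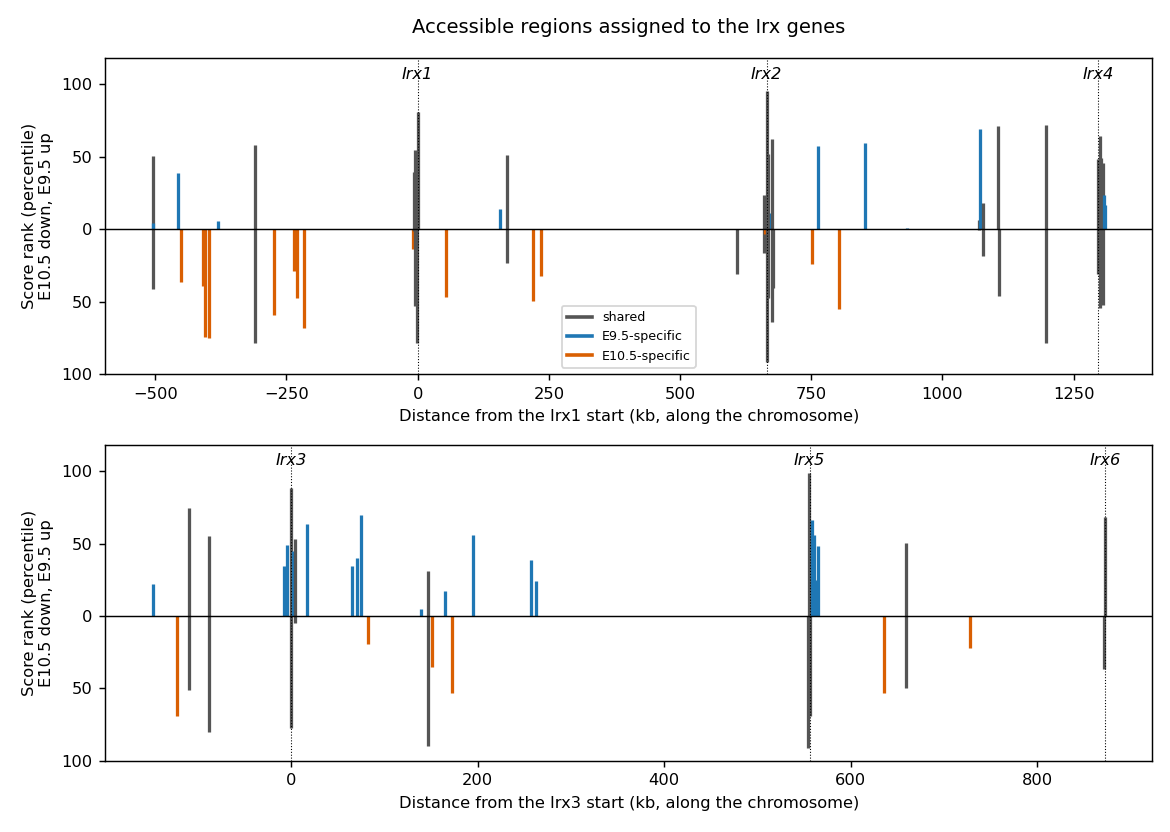
Irx regions along the chromosome, as distance in kb from the Irx1 start (top) and the Irx3 start (bottom), against the percentile rank of the score in the own list, E9.5 upward and E10.5 downward. Grey lines are shared and coloured lines stage-specific regions. E9.5-specific lines gather around Irx3 and just right of Irx5, and E10.5-specific lines left of Irx1.

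Over all regions, 29.9% were stage-specific at E9.5 and 35.0% at E10.5, and over all distal regions 40.3% and 49.6%. Irx3 went from 18 regions at E9.5, 13 of them stage-specific, to 9 at E10.5, of which 4 were stage-specific. Irx5 went from 7 regions (5 stage-specific) to 4 (1 stage-specific), and Irx6 had 1 region, which was shared, and then 2, of which 1 was stage-specific. Irx1 went the other way, from 10 regions (4 stage-specific) to 18 (12 stage-specific). Of these 18 regions, 17 were distal and 13 lay at 100 kb or more. Among all E10.5 regions at 200 kb or more from a start, a distance that only some of the 18 reached, 69.7% were stage-specific. Irx2 had 9 regions in each list, with 4 and 3 stage-specific. Irx4 had 11 regions at E9.5 (3 stage-specific) and 8 at E10.5, of which 0 were stage-specific, which allows a share of up to 37.5%, taken as 3 counts of 8 regions. Relative to the span that each cluster could draw regions from, 783 kb for Irx3, Irx5 and Irx6 and 1538 kb for Irx1, Irx2 and Irx4, the first held 33.2 regions per Mb at E9.5 and 19.2 at E10.5, and the second 19.5 and 22.8. The genome as a whole held 16.1 and 17.6 regions per Mb. If starts of non-coding genes were also used, 17 of the 18 Irx3 regions of the E9.5 list and 8 of 9 of the later list went to those genes, which left the cluster with 9 regions (55.6% stage-specific) and 7. Within the first and last start of the Irx1, Irx2 and Irx4 cluster, whichever gene was nearest, lay 24 E9.5 and 23 E10.5 regions, so that by this measure the E10.5 count was not the higher one.

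**Figure D2:**
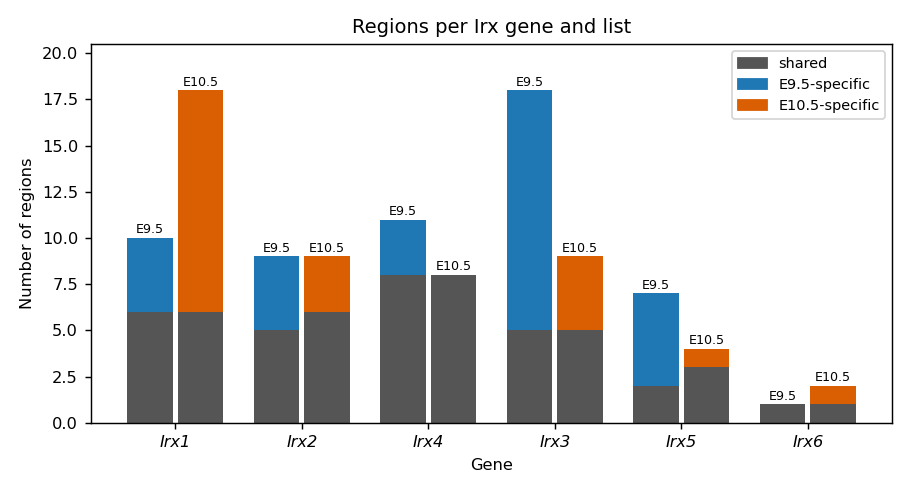
Number of accessible regions per Irx gene in the E9.5 (left bar) and E10.5 list (right bar), split into shared (grey) and stage-specific regions (blue, E9.5; orange, E10.5). Irx3 had 18 regions and then 9, and Irx1 10 and then 18.

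The starts of all 6 Irx genes carried a region in both lists, as did those of 65.2% of protein-coding genes at E9.5 and 62.6% at E10.5. Irx5 had the highest-ranking start region of the family at E9.5. There, a region of 3365 bp at chr8:94879273-94882637 scored 3100 (rank 98.8). This value was taken as the score limit, and 843 E9.5 regions reached or passed it, up to 3233.06. Regions tied in score were given their average rank. At E10.5 the same stretch held separate regions, at chr8:94878842-94880794 with a score of 1334.24 (rank 91.0) and at chr8:94880886-94882515 with a score of 459.26 (rank 69.2). The first lies nearest to the start of the neighbouring gene 4933436C20Rik and counted for Irx5 through the 2.5 kb limit, whereas the second covered the Irx5 start itself. A further E9.5 region of Irx5, centred in an intron at 2.18 kb from the start, scored 501.16 (rank 66.3) and had no E10.5 partner.

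Irx3, the limb partner of Irx5, had a start region that scored 1521.26 at E9.5 (rank 88.2, chr8:94323469-94327127) and 642.11 at E10.5 (rank 77.2, chr8:94324761-94326472). Irx6 scored 562.53 (rank 68.6) and 174.22 (rank 36.8). In the other cluster, Irx2 scored 2458.50 (rank 95.7) and 1422.72 (rank 92.0). A second Irx2 region, in a coding exon close to an alternative start, scored 277.65 (rank 52.0) and 225.70 (rank 47.6). The start of Irx1 scored 1040.85 (rank 80.7) and 687.35 (rank 78.6), and that of Irx4 249.36 (rank 48.6) and 153.57 (rank 30.9).

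Thus 7 of 7 shared Irx regions within 2.5 kb of a start ranked lower at E10.5, where 58.4% of all shared start regions did. The Irx differences in rank ran from -31.8 to -2.04 percentile points with a median of -7.80, and the median over all 14190 such regions was -1.47, with 5% of them below -31.7. The differences were -31.8 for Irx6, -17.7 for Irx4, -11.0 for Irx3, -3.70 for the higher Irx2 region and -2.04 for Irx1. For Irx5 it was -7.80 to the better-scoring of its E10.5 regions and -29.6 to the one at its own start. Closest to the 2.5 kb limit, the Irx5 intron region lay inside at 2.18 kb and an Irx3 region with a score of 224.61 outside at 2.69 kb. In the E10.5 list, the upstream Irx5 region lay inside at 1.88 kb and an Irx4 intron region with a score of 273.47 outside at 3.21 kb.

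**Figure D3:**
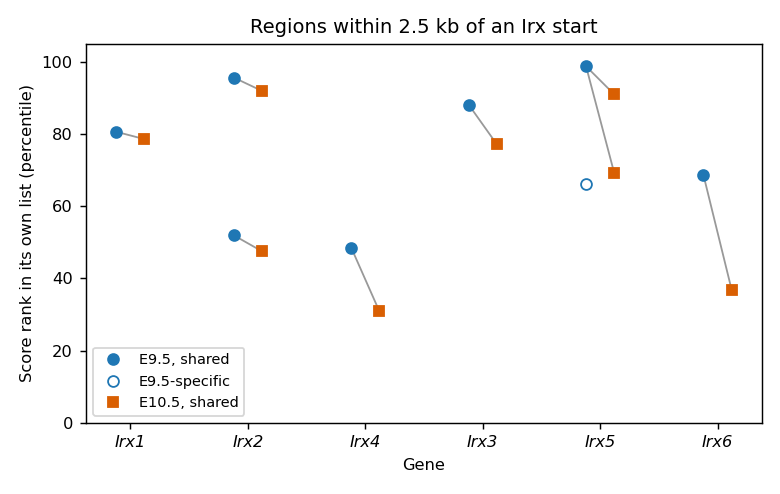
Percentile rank of the score, within its own list, of each region centred within 2.5 kb of an Irx start (circles, E9.5; squares, E10.5; open circle, no partner at E10.5). Lines join overlapping regions, and every line falls from E9.5 to E10.5.

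For Irx3 and Irx5, whose start regions were wide at E9.5, the 200 bases before the start are shown on the strand of the gene. None of the motifs given below matched in them, so they carry no capitals.
Irx3, minus strand, chr8:94325554-94325753: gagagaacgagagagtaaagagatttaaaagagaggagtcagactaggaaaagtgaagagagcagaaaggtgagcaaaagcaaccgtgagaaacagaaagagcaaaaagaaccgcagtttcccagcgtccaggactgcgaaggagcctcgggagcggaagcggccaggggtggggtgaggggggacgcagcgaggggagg
Irx5, plus strand, chr8:94881495-94881694: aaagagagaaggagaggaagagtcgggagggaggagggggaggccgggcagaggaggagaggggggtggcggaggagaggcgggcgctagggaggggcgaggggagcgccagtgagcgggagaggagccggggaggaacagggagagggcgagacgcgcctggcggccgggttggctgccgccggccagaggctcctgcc

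Near the Irx5 gene, E9.5 calls continued downstream of the start region. Regions at 4.36, 5.74, 6.82 and 9.29 kb scored 324.25, 105.38, 138.89 and 247.45, and 0 distal regions were called within 10 kb of the Irx5 start at E10.5. Irx3 likewise had 4 distal regions within 10 kb at E9.5, of which 3 were stage-specific, and 1 at E10.5. The 3 without a partner scored 173.38, 251.36 and 224.61, and the shared one, in an exon of the overlapping antisense transcript D230002A01Rik, scored 288.43 at E9.5 and 88.96 at E10.5. Irx1, Irx2 and Irx4 had 2, 3 and 3 distal regions within 10 kb at E9.5, of which 0, 1 and 0 were stage-specific. Of all distal regions within 10 kb of a start, 40.6% were stage-specific in the E9.5 list and 33.6% in the E10.5 list. Counted between 2.5 and 50 kb from the start, the Irx3, Irx5 and Irx6 cluster held 9 regions at E9.5 and 1 at E10.5, and the Irx1, Irx2 and Irx4 cluster 10 in each list, while 39.1% and 36.3% of all regions lay at that distance.

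Farther from Irx3, the highest E9.5-specific score was 603.72, at 74.7 kb upstream. It was followed by 446.94 at 17.1 kb and 317.12 at 196 kb upstream. An E9.5-specific region 148 kb downstream of Irx3, with a score of 133.04, lay in an intron of Fto. Of the 4 E10.5-specific regions of Irx3, the highest scored 461.00, at 122 kb downstream, and the others 264.42, 167.14 and 123.13.

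At Irx1 the E10.5-specific calls lay mainly in the interval downstream. Of 10 E10.5 regions at 200 kb or more downstream of Irx1, 8 were stage-specific, and at E9.5 this held for 3 of 5. The shares over all regions at 200 kb or more from a start were 69.7% and 42.6%, so neither count stood far from its list. The 4 highest of the 8 scored 590.92 at 398 kb, 570.89 at 405 kb, 439.36 at 217 kb and 318.77 at 275 kb, and the 3 at E9.5 scored between 90.45 and 189.49. A shared region in the same interval, 310 kb downstream, scored 351.71 at E9.5 (rank 58.3) and 691.89 at E10.5 (rank 78.8). It was the highest-scoring E10.5 region among the distal ones assigned to the cluster.

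Of all distal regions, 40.3% at E9.5 and 49.6% at E10.5 were stage-specific. Irx4 had 10 distal regions at E9.5, of which 7 were shared, and 7 at E10.5, all of them shared. Its highest E9.5 region, 100 kb upstream, scored 681.43 at E9.5 (rank 72.4) and 675.75 at E10.5 (rank 78.3), and another 190 kb upstream scored 641.11 (rank 71.2) and 217.49 (rank 46.1). The strongest Irx4 call without a partner, 226 kb upstream, scored 583.67 at E9.5. For Irx2, E9.5-specific regions at 183 and 94.9 kb downstream scored 366.79 and 341.86, and an E10.5-specific one at 135 kb downstream scored 278.68. Within 10 kb, a shared Irx2 region 6.67 kb downstream scored 413.48 at E9.5 and overlapped E10.5 regions scoring 377.35 and 190.94. Irx5 and Irx6 had few distant calls. A shared Irx5 region 102.8 kb downstream scored 263.51 and 238.16, an E10.5-specific one at 79.5 kb scored 263.56, and the single distal region of Irx6, 144 kb upstream, was E10.5-specific with a score of 130.14.

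Shared distal regions went either way in rank. In the Irx1, Irx2 and Irx4 cluster, 9 of 15 ranked lower at E10.5, and in the Irx3, Irx5 and Irx6 cluster 3 of 5, against 41.8% of all shared distal E9.5 regions. Distal and start regions together, 19 of 27 shared Irx regions ranked lower, against 49.7% of all shared regions. The widest gain was at Irx3, 147 kb upstream, where the score was 159.02 at E9.5 (rank 31.0) and 1238.89 at E10.5 (rank 89.8), 58.8 percentile points higher. No other distal region assigned to an Irx gene scored higher in that list, although a region between Irx1 and Irx2 that was nearest to Rpl9-ps4 scored 1252.45. Over all 29883 shared E9.5 regions, 5% gained more than 39.3 points. The Irx3 region 88.1 kb downstream scored 310.19 and 732.03 (24.8 points higher). The Irx3 regions 109 kb downstream (755.48 and 248.62) and 4.33 kb upstream (288.43 and 88.96) ranked 23.3 and 48.4 points lower at E10.5. Regions of higher and of lower rank at E10.5 thus lay side by side around a single gene.

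**Figure D4:**
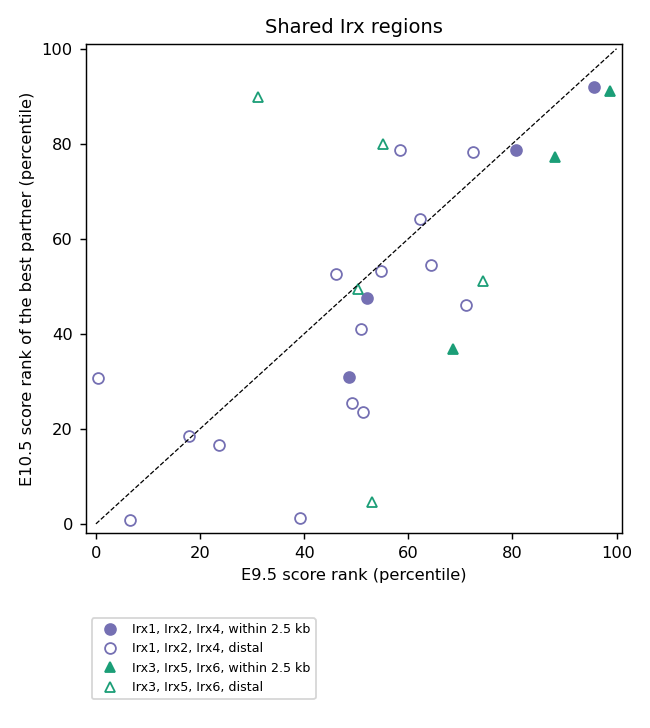
Percentile rank at E9.5 (x axis) and at E10.5 (y axis) of the 27 shared Irx regions of the E9.5 list, each with its best-scoring partner. Filled symbols lie within 2.5 kb of a start and all fall under the dashed line of equal rank, while open symbols (distal) lie on both sides, with the Irx3 region 147 kb upstream at the top left.

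The intervals of the median scores overlapped between the clusters in both lists. The median score at E9.5 was 252 (95% interval 136 to 342) for Irx1, Irx2 and Irx4 and 249 (172 to 324) for Irx3, Irx5 and Irx6, with 260 for all regions. At E10.5 it was 217 (154 to 263) and 264 (167 to 642), with 241 for all regions. E9.5-specific regions had a median of 119 in the first cluster and 193 in the second, against 145 for all E9.5-specific regions. Their E10.5 counterparts had medians of 220 and 215, against 153. Measured to protein-coding starts, the median distance of both clusters was larger than that of all regions, but the interval of each cluster median included the median of all regions. The median distance was 75.8 kb (95% interval 6.67 to 190) at E9.5 and 100 kb (7.33 to 221) at E10.5 for Irx1, Irx2 and Irx4. It was 41.4 kb (4.36 to 109) and 88.1 kb (1.88 to 144) for Irx3, Irx5 and Irx6, and 8.11 and 15.0 kb for all regions. With starts of all gene types, the medians over the regions still nearest to an Irx gene were 12.6 and 82.6 kb for Irx1, Irx2 and Irx4 and 4.36 and 1.88 kb for Irx3, Irx5 and Irx6. At 100 kb or more lay 14 of 30 and 18 of 35 regions of the first cluster and 9 of 26 and 7 of 15 of the second, as did 12.99% and 19.6% of all regions. In return, 4 regions of each cluster in each list lay within 2.5 kb, which is 14.3% and 16% of the Irx regions compared with 38.3% and 32.9% of all regions. In all, 44 of the 56 E9.5 and 39 of the 50 E10.5 Irx regions were intergenic.

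At the outer borders, the last Irx3 region in the direction of Fto lay 148 kb from Irx3 (133.04) at E9.5, and the next region outside, nearest to an Fto start, scored 123.69. Between Irx1 and Irx2, 8 E9.5 and 6 E10.5 regions were nearer to Rpl9-ps4 than to either Irx gene and are not counted here. Rpl9-ps4 has the symbol of a pseudogene, but the annotation lists it as protein-coding. Its regions include ones scoring 1195.23 at E9.5 and, at another place, 1252.45 at E10.5. The highest distal scores counted for the Irx1, Irx2 and Irx4 cluster were 681.43 and 691.89. Between Irx3 and Irx5, 2 regions in each list went to 4933436C20Rik in the same manner.

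Distal Irx regions held more CpG dinucleotides for their base composition than the median distal region. The ratio of observed to expected CpG in a window of 150 bp to either side of the centre had a median of 0.436 at E9.5 and 0.409 at E10.5 for Irx1, Irx2 and Irx4, and of 0.478 and 0.577 for Irx3, Irx5 and Irx6, where all distal regions had 0.259 and 0.246. In the first cluster 19 of 26 and 23 of 31 distal regions exceeded the median of all distal regions, and in the second 17 of 22 and 11 of 11. Start regions included, the median GC content of E9.5-specific regions was higher than that of shared ones for Irx3, Irx5 and Irx6 (57.0% and 53.7%). It was lower for Irx1, Irx2 and Irx4 (51.2% and 59.8%) and over all E9.5 regions (51.8% and 55.8%). Counted likewise, E10.5-specific regions had the lower median in both clusters, 47.0% and 62.5% for Irx3, Irx5 and Irx6 (6 and 9 regions). The medians were 47.2% and 59.6% for Irx1, Irx2 and Irx4, and 44.2% and 55.8% over all E10.5 regions. Among distal regions alone, the E9.5 medians were 56.5% and 44.5% for Irx3, Irx5 and Irx6 and 51.2% and 57.1% for Irx1, Irx2 and Irx4. All distal E9.5 regions had 50.8% in both. At E10.5 the distal order was not kept for Irx3, Irx5 and Irx6, with 47.0% in 6 stage-specific and 45.8% in 5 shared regions. It was kept for Irx1, Irx2 and Irx4 (47.2% and 56.8%) and for all distal regions (44.2% and 50.5%). The part of GC content in the Irx counts was not tested.

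**Figure D5:**
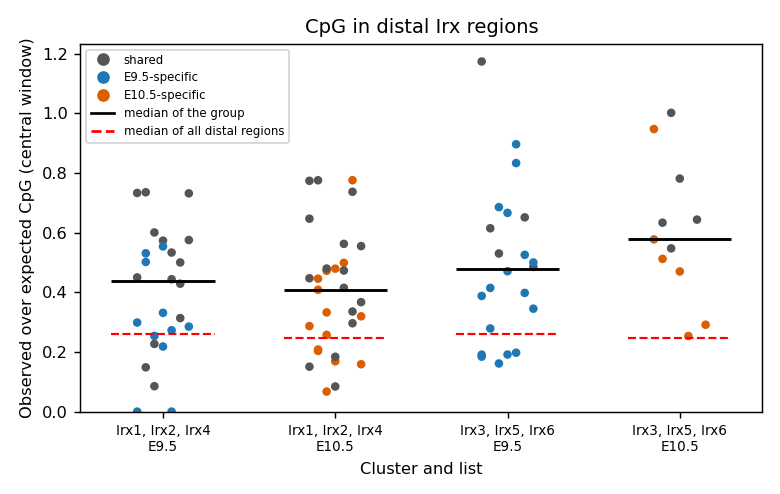
Observed over expected CpG in the window around the centre of each distal Irx region, by cluster and list (grey, shared; blue, E9.5-specific; orange, E10.5-specific). Black lines are the group medians, from 0.409 to 0.577, and red dashed lines the medians of all distal regions of the list, 0.259 and 0.246.

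Of 11 short motifs searched on both strands of the same windows, GGCGCC, a GC-rich sequence that SMAD proteins can bind and that itself contains a CpG, was in 4 of 26 and 4 of 22 distal regions of the clusters at E9.5, in the order Irx1, Irx2, Irx4 and then Irx3, Irx5, Irx6. At E10.5 it was in 5 of 31 and 1 of 11, and 5.91% and 4.56% of all distal regions held it. The GATA motif AGATAA was in 4 of 26 and 3 of 22 at E9.5 and in 2 of 31 and 0 of 11 at E10.5 (13.9% and 12.3% of all distal regions). The TEAD motif GGAATG was in 3 of 26 and 2 of 22, and then in 6 of 31 and 1 of 11 (19.5% and 19.4%). The TCF and LEF motif CTTTGAT was in 2 of 26 and 3 of 22, and in 4 of 31 and 2 of 11 (5.42% and 6.51%). For the motif ACANNTGT of the Irx proteins themselves, the counts were 2 of 26, 2 of 22, 4 of 31 and 1 of 11 (10.8% and 13.4%). The bHLH motif CATCTG of TWIST and HAND was in 8 of 26, 7 of 22, 12 of 31 and 3 of 11 (29.5% and 31.5%). The motifs of other TALE proteins were TGACAG for MEIS and PKNOX (8 of 26, 6 of 22, 7 of 31 and 2 of 11, with 25.4% and 23.8% overall) and TGATNNAT for PBX with HOX (5 of 26, 4 of 22, 5 of 31 and 4 of 11, with 15.9% and 17.1%). The homeodomain core TAATTA was in 3 of 26, 1 of 22, 4 of 31 and 1 of 11 (7.17% and 11.98%), and the SMAD palindrome GTCTAGAC and the GLI motif TGGGTGGTC were in none of the Irx regions. Matches of different motifs may overlap, and a match describes the letters and says nothing of binding.

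The central 200 bases of the highest-scoring shared and stage-specific distal regions of each cluster and list are shown so that the elements behind the values above can be read. They are given on the plus strand of mm9, and capitals are matches to the motifs just listed.
Irx4 100 kb upstream, shared, E9.5, chr13:73297674-73297873: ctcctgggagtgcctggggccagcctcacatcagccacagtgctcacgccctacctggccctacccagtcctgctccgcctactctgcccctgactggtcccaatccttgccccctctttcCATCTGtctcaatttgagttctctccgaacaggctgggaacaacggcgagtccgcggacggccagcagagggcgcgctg
Irx4 226 kb upstream, E9.5-specific, chr13:73172153-73172352: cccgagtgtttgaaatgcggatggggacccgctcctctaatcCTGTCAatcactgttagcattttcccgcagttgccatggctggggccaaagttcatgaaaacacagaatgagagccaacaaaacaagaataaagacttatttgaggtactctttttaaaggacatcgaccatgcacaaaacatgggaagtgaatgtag
Irx1 310 kb downstream, shared, E10.5, chr13:71791051-71791250: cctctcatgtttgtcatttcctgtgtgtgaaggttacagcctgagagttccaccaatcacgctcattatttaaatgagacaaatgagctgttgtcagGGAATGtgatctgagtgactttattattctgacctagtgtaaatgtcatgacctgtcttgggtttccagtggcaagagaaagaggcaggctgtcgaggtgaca
Irx1 398 kb downstream, E10.5-specific, chr13:71703090-71703289: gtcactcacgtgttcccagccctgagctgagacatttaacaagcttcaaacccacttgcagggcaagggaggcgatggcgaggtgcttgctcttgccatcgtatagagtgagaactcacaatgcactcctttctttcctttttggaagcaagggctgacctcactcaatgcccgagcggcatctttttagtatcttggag
Irx3 109 kb downstream, shared, E9.5, chr8:94216096-94216295: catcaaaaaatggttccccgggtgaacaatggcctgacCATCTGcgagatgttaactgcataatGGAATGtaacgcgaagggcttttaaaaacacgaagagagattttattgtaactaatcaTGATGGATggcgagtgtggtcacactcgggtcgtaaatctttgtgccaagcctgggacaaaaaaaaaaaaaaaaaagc
Irx3 74.7 kb upstream, E9.5-specific, chr8:94400156-94400355: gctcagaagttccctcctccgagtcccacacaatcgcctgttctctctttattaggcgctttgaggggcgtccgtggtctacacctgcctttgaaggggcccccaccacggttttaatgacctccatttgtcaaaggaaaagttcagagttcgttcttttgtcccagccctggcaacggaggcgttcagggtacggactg
Irx3 147 kb upstream, shared, E10.5, chr8:94472446-94472645: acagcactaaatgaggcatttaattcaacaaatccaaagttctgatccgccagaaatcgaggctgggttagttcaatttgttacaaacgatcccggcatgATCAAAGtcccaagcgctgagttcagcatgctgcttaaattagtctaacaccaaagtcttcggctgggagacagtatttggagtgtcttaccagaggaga
Irx3 122 kb downstream, E10.5-specific, chr8:94203618-94203817: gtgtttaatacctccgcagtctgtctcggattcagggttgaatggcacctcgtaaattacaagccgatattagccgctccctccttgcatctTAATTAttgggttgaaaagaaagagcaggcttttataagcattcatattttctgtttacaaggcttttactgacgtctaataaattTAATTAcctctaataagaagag
Among them, the shared Irx3 region 109 kb downstream held matches to the motifs of TWIST and HAND, of TEAD and of PBX with HOX, and the Irx3 region 147 kb upstream, which gained most in rank, held 1 match to that of TCF and LEF on the minus strand. The E10.5-specific Irx3 region 122 kb downstream held the homeodomain core 2 times, and the strongest stage-specific regions of Irx1 at E10.5 and of Irx3 at E9.5 held no match in these bases.

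Other genes of the TALE class and the neighbours of the clusters were counted in the same way. Of 12 TALE genes, among them the Meis and Pbx genes whose products pair with HOX proteins, 12 had a start region in the E9.5 list and 11 in the E10.5 list. Over all protein-coding genes this held for 65.2% and 62.6%. The stage-specific share of the TALE genes was 33 of 94 regions (35.1%) in the E9.5 list and 21 of 86 (24.4%) in the E10.5 list. For 10 neighbours of the Irx3, Irx5 and Irx6 cluster, Fto among them, the stage-specific shares were 7 of 22 (31.8%) and 8 of 23 (34.8%). For 10 neighbours of the other cluster they were 9 of 29 (31.0%) and 10 of 30 (33.3%). Both sets of neighbours were thus near the 29.9% and 35.0% of the whole lists. The E9.5 share of the Irx3, Irx5 and Irx6 cluster was 69.2%, a value of the kind by which the genes were chosen. The sets were not matched for distance. Of the 26 E9.5 regions of that cluster, 22 were distal, and 40.3% of all distal E9.5 regions were stage-specific. Single neighbours differed at E9.5, with 4 of 9 for Fto and 1 of 6 for Chd9. Whether the difference is particular to the Irx genes was not tested.

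As to the tissue, the starts of 7 of 7 limb mesenchyme marker genes had a region in both lists. So did 5 of 5 genes of somites and muscle precursors. Of the regions nearest to the somite genes, 17 of 35 (48.6%) were stage-specific in the E9.5 list and 4 of 23 (17.4%) in the later one. For neural tube genes these counts were 5 of 18 (27.8%) and 1 of 14 (7.14%), and for limb mesenchyme genes 9 of 46 (19.6%) and 39 of 77 (50.6%). Limb ectoderm genes had 12 of 30 (40%) and 8 of 27 (29.6%), and hindlimb genes 10 of 26 (38.5%) and 9 of 25 (36%). Endothelium and blood genes had 5 of 22 (22.7%) and 9 of 26 (34.6%), and ventricle genes 2 of 2 and 1 of 1. The whole lists had 29.9% and 35.0%. Of the matched neural tube genes, 3 of 3 had a start region in the earlier list and 2 of 3 in the later. The hindlimb genes had 3 of 3 and 2 of 3, limb ectoderm 4 of 6 in both, endothelium and blood 2 of 4 in both, and ventricle, where Irx4 is known to act, 0 of 3 in both. The part of any of these cell types in the Irx counts was not tested.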

How the data were processed

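ATAC-seq was done on 2 biological replicates per stage. The authors aligned reads to mm9 with Bowtie 1.1.0, called regions with MACS 1.4 and combined replicates with MSPC (stringent p-value 1e-10, weak p-value 1e-06). Tool versions are those of the submitters' processing notes. The deposited score was computed by the authors as -log10 of a MACS p-value, times 10, taking the best of the replicate regions that a combined region covers. Totals of reads were not analysed here, so depth is unknown and no replicate test was made.

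Regions were annotated with GENCODE vM1 on NCBIM37, the assembly of mm9. Scripts in Python 3.11.15 assigned regions to starts, overlaps (1 bp), ranks and Wilson intervals, and were tested on simulated regions. Similarity was searched with blastn 2.17.0 (word size 11, E-value at most 1e-05), masking only low-complexity sequence. Named were all regions within 2.5 kb of an Irx start and, per gene and list, the 2 highest-scoring distal regions and the highest-scoring stage-specific one. Others, and the sequences before the Irx3 and Irx5 starts, were chosen after their values were seen. Genes, motifs and lists were chosen with earlier results of these data known. Symbols matched for 31 of 32 marker genes.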

Additional observations from a re-analysis of the deposited data

How the results depend on the processing

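The counts, shares, median scores and median distances of both clusters were recomputed under 84 alternatives, of which 70 left the value within its interval or within 1.5 times the count. Keeping only the higher-scoring 50% of each list left 14 and 13 regions of Irx1, Irx2 and Irx4 at E9.5 and E10.5, with median scores of 390 and 439, and 12 and 9 of Irx3, Irx5 and Irx6, with a median of 474 at E9.5. Set against the whole other list, the E9.5-specific share of those regions was 21.4% for Irx1, Irx2 and Irx4 and 41.7% for Irx3, Irx5 and Irx6. With a reciprocal overlap of 50%, the stage-specific share of Irx3, Irx5 and Irx6 came to 84.6% (E9.5) and 73.3% (E10.5), and that of Irx1, Irx2 and Irx4 to 36.7% and 45.7%. With starts of genes of all types, the Irx3, Irx5 and Irx6 cluster had 9 and 7 regions, and its E9.5-specific share was 55.6%. This was because 17 and 8 of the Irx3 regions were then nearest to D230002A01Rik, U6 or Gm3235. The median distance was then 12.6 and 82.6 kb at the 2 stages for Irx1, Irx2 and Irx4 and 4.36 and 1.88 kb for Irx3, Irx5 and Irx6. Between the first and last start, Irx1, Irx2 and Irx4 had 24 E9.5 and 23 E10.5 regions, so the higher E10.5 count of this cluster was not kept, nor was it in the higher-scoring 50%.

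No paired analysis was possible because the replicates of a stage had been merged into 1 list. For the same reason, leaving out a replicate was not run.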
